A study of Homo sapiens with 9 samples.

Results

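The solute carrier (SLC) genes are described here in MDA-MB-231 cells that carried one of 3 lentiviral constructs. A gene was taken as a member where its symbol was SLC, a number, the letter A and a number, and where its mean over the 9 libraries was at least 1 CPM (a count scaled to the library total). The members were thus chosen by their level and name. Among the 26364 genes of the count tables, 189 symbols of this form reached the floor. A further 145 did not, 3 of which had no count in any library. Another 26 symbols that go on after this pattern, 15 of them antisense names, were left out. Membership used the mean over all libraries and no difference between constructs, so the levels at the floor are a description and the differences between groups were tested. SLC12A5 (1.27 CPM), SLC26A4 (1.22 CPM), SLC16A6 (1.18 CPM) and SLC2A4 (1.14 CPM) lay just inside the floor. SLC6A16 (0.9997 CPM), SLC23A1 (0.997 CPM), SLC10A5 (0.881 CPM) and SLC4A8 (0.875 CPM) lay just outside.

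MDA-MB-231 is an established human triple-negative breast cancer line with a mesenchymal-like gene program. All cells had been infected with a pLVX lentivirus, which was the empty vector or delivered MEL-18 in its wild-type form (MEL-18 WT) or as the substitution T334A, labelled as deficient in phosphorylation at that threonine. Each group held 3 libraries of cultures kept for 48 h in DMEM with serum, from polyadenylated RNA by a strand-marking kit. MEL-18 is the product of PCGF2 and a ring finger subunit of Polycomb complexes, which silence genes through chromatin. The control cells thus carried the lentivirus too, and no uninfected cells were in the series. The labels do not say whether replicates came from separate infections, so the spread behind each p-value is that of these libraries and may be technical. A construct cannot be told apart from the infected line that carries it.

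Solute carriers are membrane proteins that move amino acids, sugars, nucleosides, ions, metals, vitamins and lipids down a gradient or against it by coupling to the flow of another solute. Most sit in the plasma membrane or the membranes of the secretory and lysosomal compartments, and the SLC25 family sits in the inner mitochondrial membrane. Tumour cells are known for high levels of glucose, lactate and glutamine carriers, and some carriers work only as pairs, such as SLC7A5 or SLC7A11 with the heavy chain SLC3A2.

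Library totals ran from 31643722 to 37005302 counts. PCGF2 stood at 22.2 to 23.8 CPM in the vector libraries, 1279 to 1292 CPM in the MEL-18 WT libraries and 1389 to 1451 CPM in the MEL-18 T334A libraries, so that the construct's RNA was present where the labels say and did not overlap between the MEL-18 groups. Of the markers of this line, VIM, CD44, EGFR, CAV1, ANXA1 and MSN were high in all 9 libraries, ESR1, PGR and CDH1 stood at 0.274 CPM at most, and ERBB2 (62.8 to 70.5 CPM) and EPCAM (7.20 to 12.6 CPM) were present. Of 7 markers of leukocytes, endothelium, liver and melanocytes none exceeded 1.19 CPM. Of the endothelial genes, PECAM1 had means of 0.950 CPM in the vector cells, 0.474 CPM with WT and 0.330 CPM with T334A. CDH5 had 0.948, 0.605 and 0.204 CPM in that order. Their part in the results was not tested. In bulk RNA, fewer cells with a transcript and less transcript per cell cannot be told apart.

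The members together held 1.19 to 1.23% of the counts of each library. Their summed level was 12315 ± 49.8 CPM with the vector, 12161 ± 16.1 CPM with MEL-18 WT and 11849 ± 3.87 CPM with MEL-18 T334A (mean ± SD, n = 3, as for all group values that follow). All 189 passed the filter on low counts, and 187 had at least 1 CPM in each group, the exceptions being SLC16A6 and SLC2A4. A few carriers known in other cells were missing from the members. SLC16A1, the lactate carrier MCT1, had 0 to 15 counts per library and SLC19A1, the reduced folate carrier, had 7 to 30. SLC25A6, an adenine nucleotide carrier whose gene lies in the region shared by the X and Y chromosomes, was listed at 0 in all 9 libraries, and how multi-mapping reads were counted is not given in the sources used here.

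The largest rises against the vector concerned carriers with few counts: SLC22A3, an organic cation carrier, and SLC12A7, which exports potassium with chloride, led with MEL-18 WT, and SLC29A4, a carrier of monoamines, and SLC12A7 led with MEL-18 T334A. The largest fall of a carrier above 100 CPM over the 9 libraries against the vector was that of SLC5A3, which takes up myo-inositol, followed by that of SLC25A36, a mitochondrial carrier of pyrimidine nucleotides, and SLC2A1, the glucose carrier GLUT1. In MEL-18 WT against the vector, 59 of 189 members (31.2%) differed at an edgeR adjusted p below 0.05, 36 higher and 23 lower, against 28.8% of all 14738 tested genes and 31.2% of the 12845 tested genes at 1 CPM or more. In MEL-18 T334A against the vector, 89 members (47.1%) differed, 56 higher and 33 lower, against backgrounds of 45.9% and 49.9%. In MEL-18 T334A against MEL-18 WT, 88 members (46.6%) differed, 44 in each direction, against 40.9% and 44.9%. The members were thus called about as often as other genes of their level range in each comparison. The 3 comparisons share groups and are not independent of each other.

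Most differences were small. The median fold of the called members was 1.16 in MEL-18 WT against the vector, 1.17 in MEL-18 T334A against the vector and 1.15 between the MEL-18 groups. The median log2 fold change of all members was 0.013, 0.015 and 0.0077 in that order, beside -0.0017, -0.0022 and -0.0033 for all tested genes. A called change over 1.5-fold was found for 8 members in MEL-18 WT (7 higher, 1 lower), 14 in MEL-18 T334A (13 higher, 1 lower) and 4 between the MEL-18 groups (2 higher, 2 lower). The background was 4.38%, 6.86% and 4% of all tested genes and 3.25%, 5.2% and 2.59% of those at 1 CPM or more. The libraries of the groups did not overlap for 91, 104 and 107 members. Such genes made up 42.7%, 51.5% and 48.7% of all tested genes and 45.5%, 54.9% and 52.3% of those at 1 CPM or more. One alternative fit took out, from each gene, the median change of the 20 tested genes on either side of it on the chromosome, and is called the fit with the neighbours taken out. In it the calls in MEL-18 WT were 35 higher and 12 lower, a share of higher calls of 74.5% in place of 61.0%. Scaled by library totals alone, the calls in MEL-18 T334A against the vector were 70 higher and 27 lower, a share of 72.2% in place of 62.9%. That scaling moved the median log2 fold change of all tested genes in this comparison by 0.038. The share of higher calls among all tested genes was not taken in either fit. These shifts therefore cannot be read as a trait of the members.

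**Figure D1:**
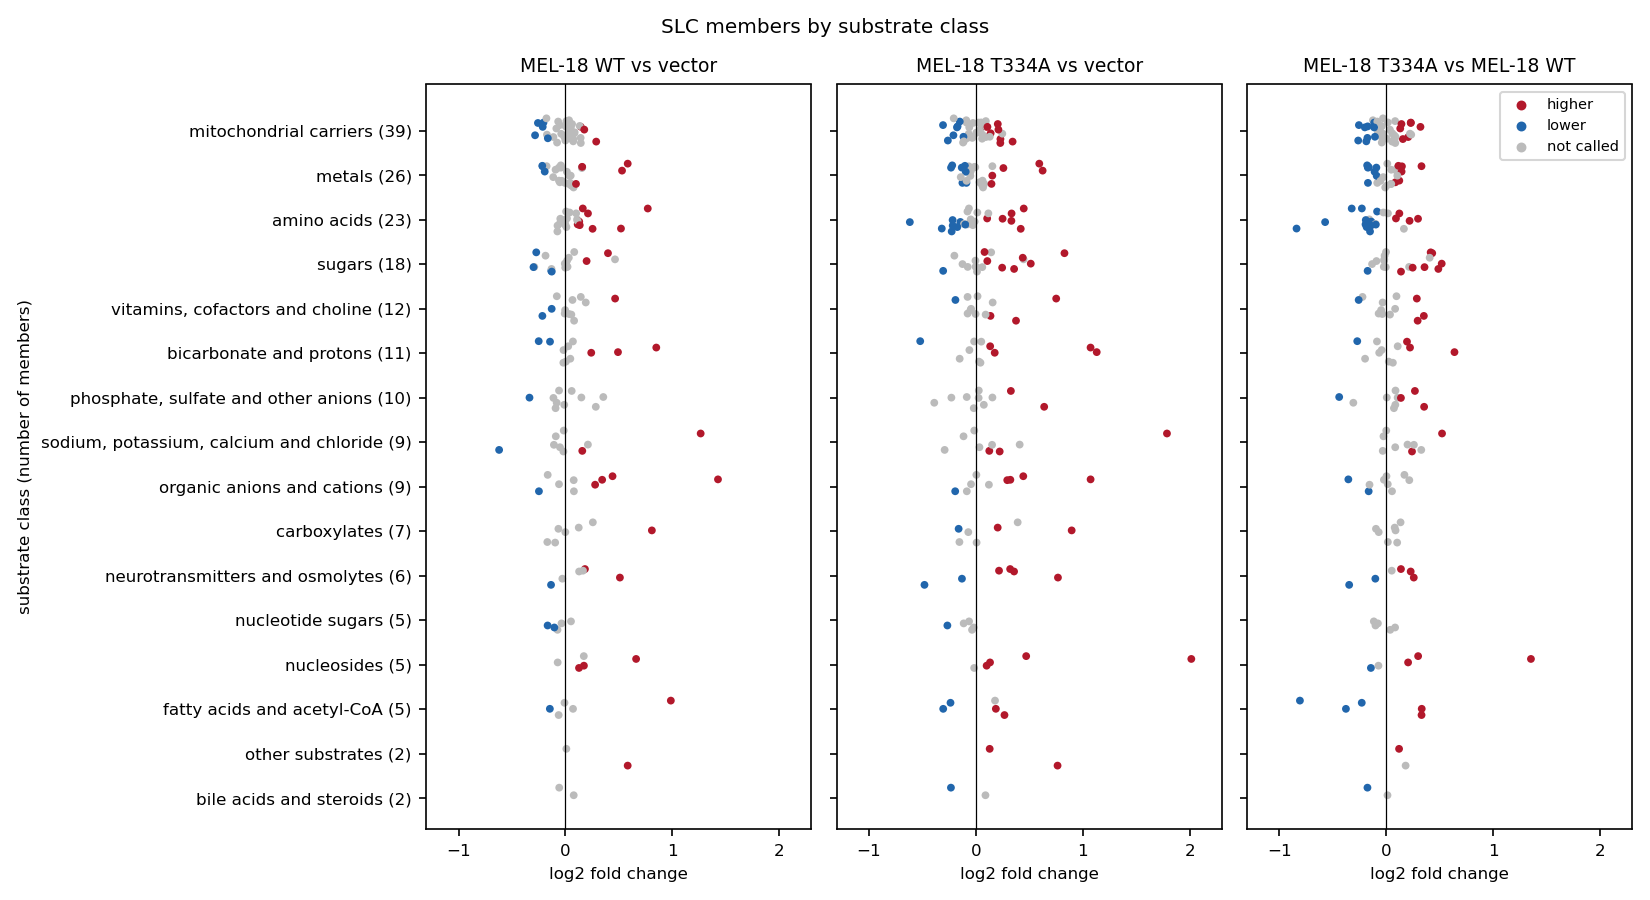
Log2 fold change (x axis) of each of the 189 members, 1 point per gene, in rows by substrate class with the number of members in brackets and classes of 1 member joined as other substrates (points are spread vertically for legibility), for the 3 comparisons. Red and blue points passed the test in the higher and the lower direction. Amino acid carriers show 8 higher and 0 lower calls in MEL-18 WT against the vector and 4 higher and 14 lower calls between the MEL-18 groups, and no mitochondrial carrier with a call exceeds 1.5-fold.

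Members were split by their counts, which depend on transcript length as well as abundance. Of 55 members with a mean of 1 to 10 CPM, 7, 13 and 4 were called and changed over 1.5-fold in MEL-18 WT against the vector, MEL-18 T334A against the vector and between the MEL-18 groups. Of 103 members at 10 to 100 CPM the same counts were 1, 1 and 0, with SLC4A3 the member in both comparisons with the vector. Of 31 members at 100 CPM or more there were none in any of the 3 comparisons. Among all tested genes the shares called and changed over 1.5-fold were 10.3%, 15.5% and 8.13% at 1 to 10 CPM and 0.234%, 0.313% and 0.352% at 100 CPM or more. Low members were mainly called higher, with 17 higher and 2 lower at 1 to 10 CPM in MEL-18 WT and 23 higher and 3 lower in MEL-18 T334A. All tested genes of this range had 18.6% higher and 7.32% lower in MEL-18 WT and 27.0% higher and 10.6% lower in MEL-18 T334A. High members were mainly called lower in MEL-18 T334A, with 2 higher and 14 lower against the vector and 7 higher and 16 lower against MEL-18 WT. Of all tested genes at 100 CPM or more, 18.1% were higher and 43.6% lower against the vector, and 23.5% were higher and 34.7% lower against MEL-18 WT.

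**Figure D2:**
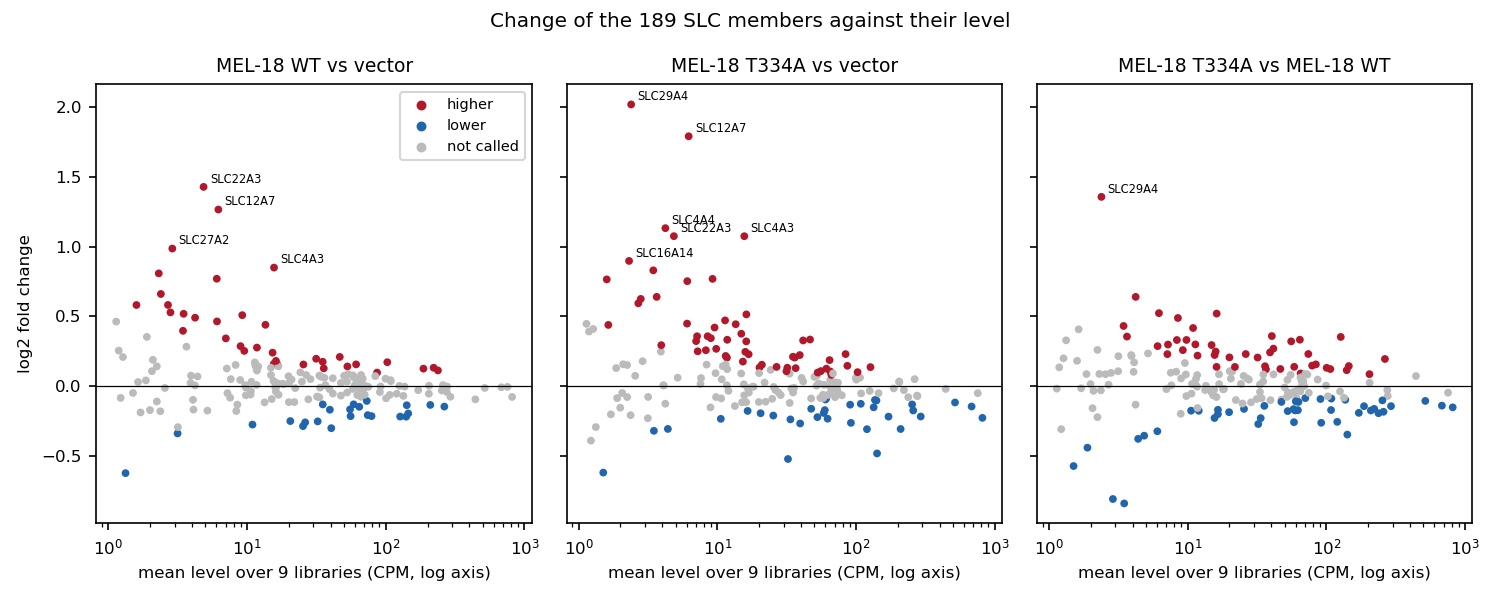
Log2 fold change (y axis) of the 189 members against their mean level over 9 libraries (x axis, CPM, log scale) in the 3 comparisons, with called members in red (higher) and blue (lower) and the called members with a log2 change above 0.84 in size named. The points narrow from left to right: called changes over 1.5-fold lie at the left, with SLC4A3 the only one above 10 CPM, and none lies at 100 CPM or more.

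The stretch of 250 bases before the annotated gene start is shown for SLC29A4 and SLC12A7, which rose most with MEL-18 T334A, for SLC4A3, the called member above 10 CPM that rose over 1.5-fold, and for SLC2A1, the main glucose carrier, which fell. They are set side by side to show how these starts differ in base composition. The sequences are those of RefSeq on GRCh38.p14, read 5′ to 3′ on the strand of the gene, and the start in use in these cells was not measured. Capitals mark CACGTG, the E-box bound by MYC- and USF-type factors, and TATAAA, the TATA box. SLC12A7 lies at chr5:1112064-1112313 (minus strand), SLC29A4 at chr7:5282693-5282942 (plus strand), SLC4A3 at chr2:219630807-219631056 (plus strand) and SLC2A1 at chr1:42958869-42959118 (minus strand).
SLC12A7: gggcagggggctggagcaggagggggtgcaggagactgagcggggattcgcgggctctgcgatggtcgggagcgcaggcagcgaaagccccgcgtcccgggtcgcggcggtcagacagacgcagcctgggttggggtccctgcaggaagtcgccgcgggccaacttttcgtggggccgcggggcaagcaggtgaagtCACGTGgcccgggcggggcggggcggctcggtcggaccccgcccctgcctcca
SLC29A4: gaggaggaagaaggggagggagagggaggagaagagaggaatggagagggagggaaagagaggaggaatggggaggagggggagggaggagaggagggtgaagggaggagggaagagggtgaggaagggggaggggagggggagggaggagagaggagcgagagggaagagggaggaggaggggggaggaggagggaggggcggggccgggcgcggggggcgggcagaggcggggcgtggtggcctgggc
SLC4A3: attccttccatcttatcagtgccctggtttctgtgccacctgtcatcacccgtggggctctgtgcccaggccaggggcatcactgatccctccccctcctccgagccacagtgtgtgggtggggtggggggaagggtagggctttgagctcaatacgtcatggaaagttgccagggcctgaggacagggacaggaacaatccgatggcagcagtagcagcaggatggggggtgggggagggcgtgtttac
SLC2A1: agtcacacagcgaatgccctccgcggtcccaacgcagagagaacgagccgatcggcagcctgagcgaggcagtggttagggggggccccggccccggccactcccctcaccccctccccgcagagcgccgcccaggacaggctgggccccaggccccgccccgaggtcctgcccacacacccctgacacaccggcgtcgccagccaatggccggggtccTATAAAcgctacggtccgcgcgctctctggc
SLC12A7 has the E-box 53 bases and SLC2A1 the TATA box 31 bases before the start, and neither motif was found in the windows of SLC29A4 and SLC4A3. Counted as CG pairs, the windows of SLC12A7 and SLC2A1 hold 28 and 24, and those of SLC29A4 and SLC4A3 hold 8 and 5. Windows were present for 153 of the 189 members (226 windows, since some genes have several), with a median of 19 CG pairs beside 11 over all 35116 windows. On either strand, CACGTG was found in 11.1% of member windows and 6.34% of all windows, and TATAAA in 6.19% and 10.7%. The members were chosen by their level and all windows were not. These differences in CG pairs and motifs therefore cannot be read as a trait of the family. A match of letters is a description and no evidence of binding.

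Among the carriers of ions and acid equivalents, 3 members rose in both MEL-18 groups and stood highest with T334A. SLC12A7, the potassium and chloride exporter KCC4, read 2.501, 2.59 and 3.03 CPM with the vector, 6.35, 6.60 and 6.53 CPM with MEL-18 WT and 9.22, 9.42 and 9.36 CPM with MEL-18 T334A. The 3 groups did not overlap, and every MEL-18 T334A library lay above every MEL-18 WT library. The log2 fold change was 1.26 ± 0.10 (SE) with MEL-18 WT (edgeR adjusted p = 1.12e-10), 1.79 ± 0.092 with MEL-18 T334A (edgeR adjusted p = 1.28e-14) and 0.52 ± 0.075 between the MEL-18 groups (edgeR adjusted p = 3.33e-06). SLC4A3, the anion exchanger AE3 that lowers cell pH, read 8.66, 9.66 and 10.3 CPM with the vector, 18.4, 16.5 and 16.6 CPM with MEL-18 WT and 19.1, 21.4 and 19.6 CPM with MEL-18 T334A. Its groups did not overlap either, though the step between the MEL-18 groups was small. The log2 fold changes of SLC4A3 were 0.85 ± 0.069, 1.07 ± 0.068 and 0.22 ± 0.060 (edgeR adjusted p = 2.99e-10, 8.91e-13 and 0.0038) in the same order. SLC4A4, the sodium and bicarbonate cotransporter NBCe1 that raises cell pH, read 2.81, 2.59 and 2.84 CPM with the vector, 3.75, 4.13 and 3.67 CPM with MEL-18 WT and 6.14, 5.997 and 5.89 CPM with MEL-18 T334A. These groups were again apart, with log2 fold changes of 0.49 ± 0.11, 1.13 ± 0.10 and 0.64 ± 0.092 (edgeR adjusted p = 0.00107, 7.45e-10 and 3.47e-06).

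In the same families SLC4A11, known for proton and ammonia transport, fell with both constructs. It read 35.5, 38.6 and 40.5 CPM with the vector, 33.7, 29.7 and 32.9 CPM with MEL-18 WT and 28.2, 27.9 and 23.9 CPM with MEL-18 T334A, with the 3 groups apart. Its log2 fold changes were -0.25 ± 0.056 with MEL-18 WT, -0.52 ± 0.058 with MEL-18 T334A and -0.27 ± 0.059 between the MEL-18 groups (edgeR adjusted p = 0.0011, 3.83e-08 and 5.62e-04). SLC12A2, the sodium, potassium and chloride importer NKCC1, rose from 57.1 ± 2.59 CPM to 63.7 ± 0.227 CPM with MEL-18 WT and 62.4 ± 1.82 CPM with MEL-18 T334A (log2 fold changes of 0.16 ± 0.036 and 0.13 ± 0.036, edgeR adjusted p = 0.00146 and 0.00568). SLC4A2, the anion exchanger AE2, was lower with MEL-18 WT (-0.14 ± 0.030, edgeR adjusted p = 4.63e-04) and higher in MEL-18 T334A than in MEL-18 WT (0.20 ± 0.030, edgeR adjusted p = 6.61e-06). Its 40 nearest tested neighbours on chromosome 7 had medians of -0.10 and 0.14. With these taken out both calls were lost (edgeR adjusted p = 0.695 and 0.0729). A pair of further carriers of these classes passed no test in any of the 3 comparisons. SLC12A4, the exporter KCC1, had log2 fold changes of -0.016, -0.014 and 0.0023, and SLC4A7, the bicarbonate importer NBCn1, 0.0044, 0.030 and 0.026. SLC24A5, an intracellular potassium-dependent calcium exchanger, was called lower in MEL-18 WT (-0.62 ± 0.19, edgeR adjusted p = 0.0148) at 1.61 ± 0.161 against 1.06 ± 0.304 CPM. This did not hold without vector replicate 2 (edgeR adjusted p = 0.0809) and without MEL-18 WT replicate 1 (0.11) or 2 (0.0555), and with DESeq2 (0.0862).

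**Figure D3:**
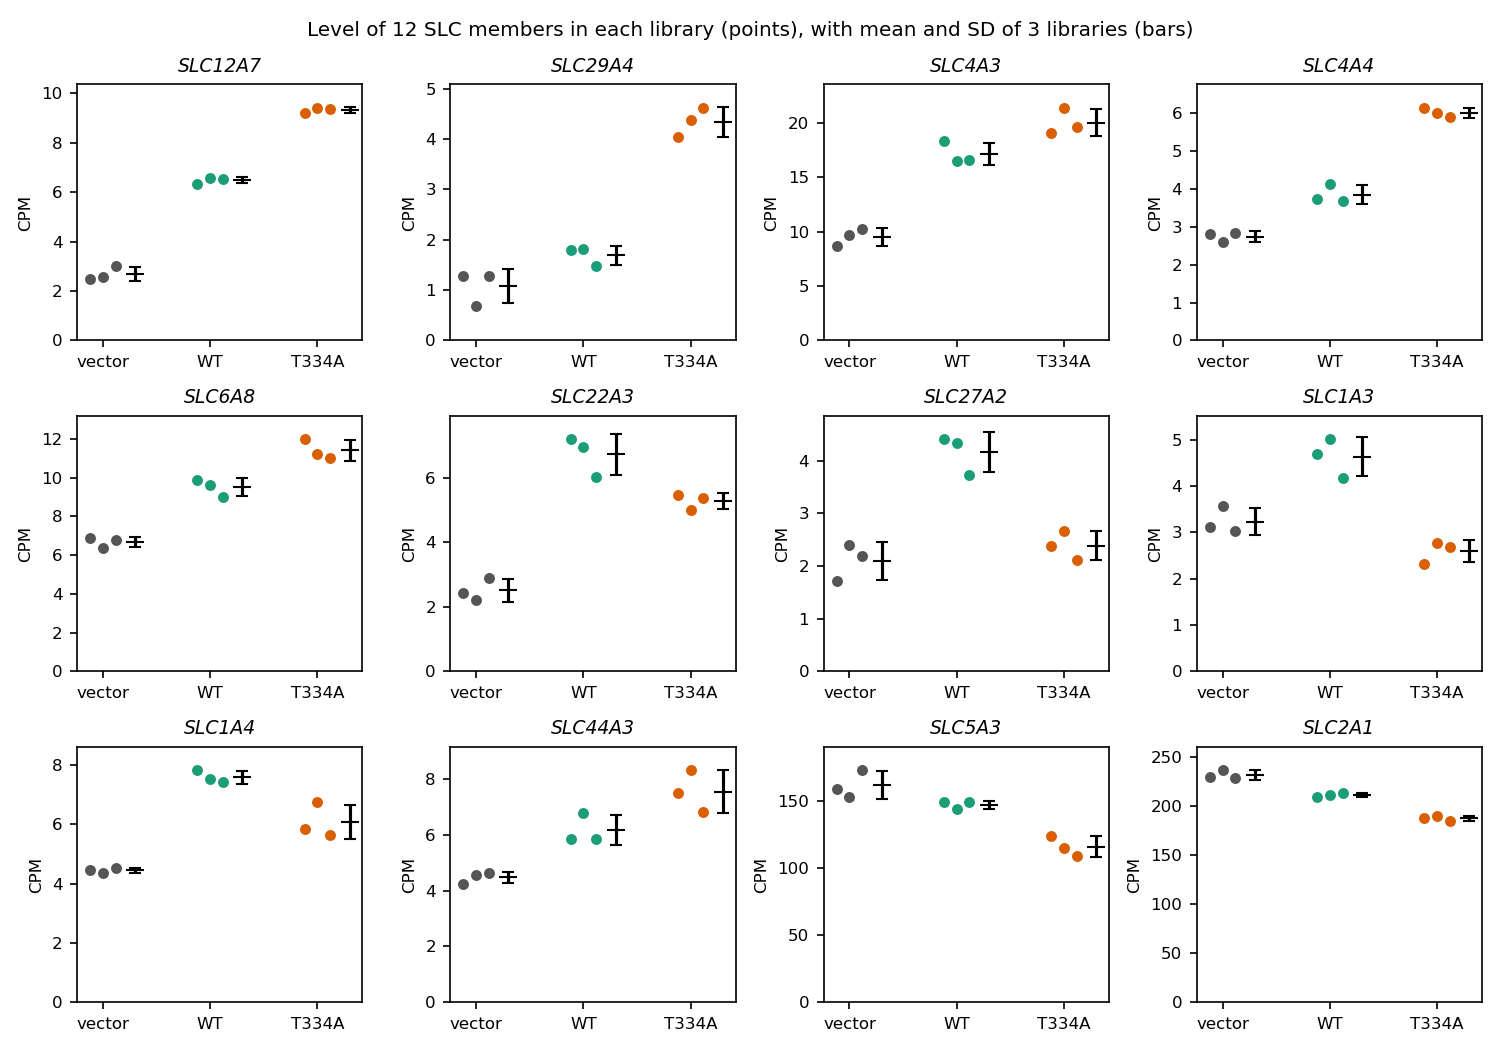
Level (y axis, CPM, from 0) of 12 members in each of the 9 libraries, with the groups along the x axis. Points are libraries, horizontal marks are group means and bars are the SD of 3 libraries. SLC12A7, SLC4A3, SLC4A4 and SLC6A8 step up from group to group, SLC2A1 steps down, and SLC27A2 and SLC1A3 are high with MEL-18 WT alone.

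Some carriers of monoamines and organic cations were higher in both MEL-18 groups than in the vector cells. Of the 9 members in the class of organic anions and cations, 4 rose and 1 fell in each comparison with the vector. Of all tested genes 28.8% and 45.9% were called there. Between the MEL-18 groups 0 were higher and 2 lower, where 40.9% of all tested genes were called. The vesicular monoamine carrier SLC18A2, described below, was not called against the vector with the neighbours taken out. SLC29A4, the plasma membrane monoamine transporter that belongs to the nucleoside carrier family, read 1.28, 0.684 and 1.27 CPM with the vector, 1.79, 1.82 and 1.47 CPM with MEL-18 WT and 4.03, 4.38 and 4.62 CPM with MEL-18 T334A. All MEL-18 T334A libraries lay far above the other 6, while the vector and MEL-18 WT libraries lay close together without overlap. Its log2 fold change was 2.02 ± 0.16 against the vector (edgeR adjusted p = 8.87e-11) and 1.36 ± 0.14 against MEL-18 WT (edgeR adjusted p = 2.03e-08), and its chromosomal neighbours had medians of 0.085 and 0.27. With the neighbours taken out, the value against MEL-18 WT was 1.09 (edgeR adjusted p = 1.37e-06). In MEL-18 WT against the vector the call of 0.66 ± 0.19 (edgeR adjusted p = 0.0108) rested on vector replicate 2: without it the value was 0.41 (edgeR adjusted p = 0.12).

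SLC22A3, the organic cation transporter OCT3 that clears monoamines, read 2.44, 2.2 and 2.90 CPM with the vector, 7.22, 6.95 and 6.02 CPM with MEL-18 WT and 5.46, 5.01 and 5.38 CPM with MEL-18 T334A. Here MEL-18 WT was the highest group, MEL-18 T334A lay between it and the vector, and no libraries of different groups overlapped. The log2 fold changes were 1.43 ± 0.11 with MEL-18 WT (edgeR adjusted p = 1.17e-10), 1.07 ± 0.12 with MEL-18 T334A (edgeR adjusted p = 2.57e-08) and -0.35 ± 0.094 between the MEL-18 groups (edgeR adjusted p = 0.0036). SLC47A1, the exporter MATE1 that pairs with organic cation uptake, rose alike with both constructs, from 10.9 ± 0.399 CPM to 14.8 ± 0.774 and 14.9 ± 0.649 CPM ( 0.44 ± 0.063 and 0.44 ± 0.063, edgeR adjusted p = 4.18e-06 and 1.80e-06). SLC22A23, a relative with no settled substrate, did so too, with 0.34 ± 0.082 and 0.32 ± 0.082 (edgeR adjusted p = 0.00197 and 0.00203). SLC17A5, the lysosomal sialic acid exporter, was lower in both, with -0.25 ± 0.054 and -0.19 ± 0.054 (edgeR adjusted p = 7.74e-04 and 0.00447). The second of these calls was lost with the neighbours taken out (edgeR adjusted p = 0.072).

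The other 4 carriers of nucleosides and bases moved less. SLC29A1, the main equilibrative nucleoside transporter ENT1, stood at 96.2 ± 1.97 CPM with the vector, 108 ± 1.54 CPM with MEL-18 WT and 103 ± 1.63 CPM with MEL-18 T334A. Both MEL-18 groups were called higher (0.17 ± 0.030 and 0.10 ± 0.030, edgeR adjusted p = 6.90e-05 and 0.00752). SLC29A3, the lysosomal ENT3, was higher with MEL-18 T334A alone, by 0.47 ± 0.070 against the vector and 0.30 ± 0.068 against MEL-18 WT (edgeR adjusted p = 3.99e-06 and 8.18e-04), beside neighbour medians of 0.19 and 0.19 on chromosome 10. With the neighbours taken out the second call was lost (edgeR adjusted p = 0.268). SLC43A3, a purine base carrier, rose in MEL-18 WT (0.13 ± 0.031, edgeR adjusted p = 0.00222) and was lower in MEL-18 T334A than in MEL-18 WT (-0.14 ± 0.031, edgeR adjusted p = 5.13e-04). SLC29A2, the carrier ENT2, was called higher with MEL-18 T334A against both groups (0.13 ± 0.041 and 0.21 ± 0.040, edgeR adjusted p = 0.00856 and 1.82e-04). Both of its calls were lost with the neighbours taken out (edgeR adjusted p = 0.305 and 0.291), and the first without vector replicate 1 (edgeR adjusted p = 0.0517) and with DESeq2 (0.0504).

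More amino acid carriers were called lower than higher in MEL-18 T334A against MEL-18 WT, among them the main carriers of glutamine, cystine and arginine. Of 23 amino acid carriers, 8 rose and 0 fell in MEL-18 WT against the vector, 6 rose and 8 fell in MEL-18 T334A against the vector, and 4 were higher and 14 lower in MEL-18 T334A than in MEL-18 WT. The medians of the 23 log2 fold changes were 0.039, -0.064 and -0.14 in that order. Among all tested genes the shares called higher and lower were 14.4% and 14.4%, 23.4% and 22.5%, and 21% and 20%. Among those at 1 CPM or more they were 15.4% and 15.9%, 25.1% and 24.8%, and 23% and 21.9%. Among those at 100 CPM or more they were 9.26% and 25.3%, 18.1% and 43.6%, and 23.5% and 34.7%. The class holds members of low and of high level. Its 8 falls in 23 against the vector did not exceed the 43.6%, while the 14 in 23 against MEL-18 WT exceeded the 34.7%. Of the 31 members at 100 CPM or more, some of them in this class, 51.6% were lower against MEL-18 WT. The class was chosen with earlier results of these data known, and no set test was run. The summed level of the 23 was 3254 ± 12.9 CPM with the vector, 3251 ± 22.7 CPM with MEL-18 WT and 2956 ± 31.5 CPM with MEL-18 T334A, which is 90.8% of the vector level. The sum weighs most the carriers with many counts, such as SLC38A2 and SLC38A1. The 8 rises with MEL-18 WT were 5 with DESeq2, 4 without MEL-18 WT replicate 2 and 5 without MEL-18 WT replicate 3. The 0 falls were 1 with DESeq2, with the neighbours taken out or without MEL-18 WT replicate 1. They were 2 in a fit of the compared groups alone. Against the vector, the 6 rises and 8 falls with MEL-18 T334A were 6 and 6 by library totals alone, and 7 and 7 with the neighbours taken out or without vector replicate 3. They were 5 and 7 with DESeq2, 4 and 7 without vector replicate 1, and 5 and 6 without vector replicate 2. The 4 members higher with MEL-18 T334A than with MEL-18 WT were 2 with DESeq2 and 2 with the neighbours taken out. The 14 lower ones were 10 with DESeq2, 11 with the neighbours taken out and 11 to 14 when a library was left out.

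**Figure D4:**
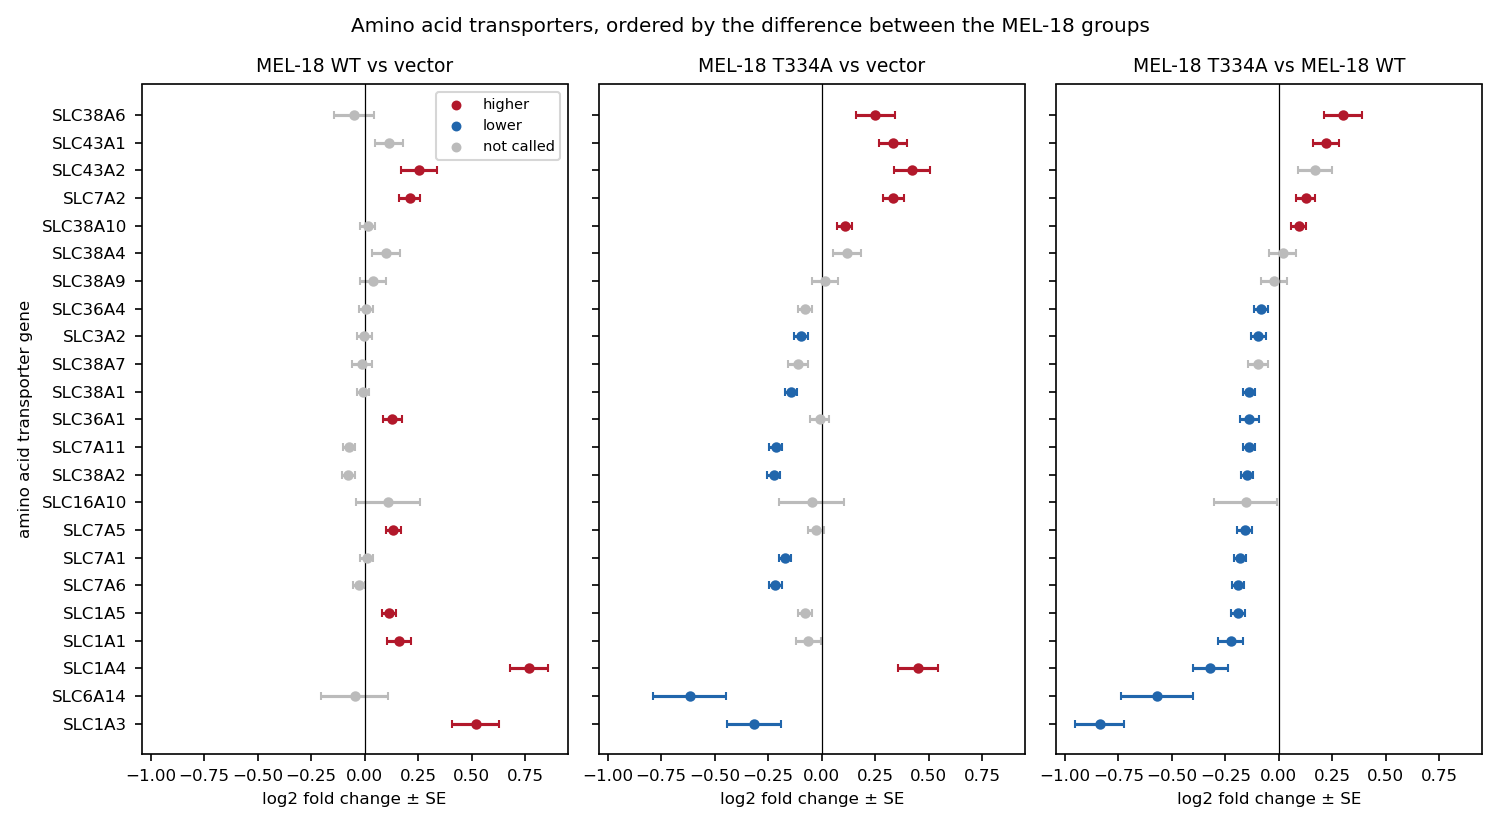
Log2 fold change (x axis) of the 23 amino acid carriers with its standard error (bars), in the 3 comparisons, ordered by the difference between the MEL-18 groups. Red and blue points passed the test. The right panel shows 14 blue points, with SLC1A3 farthest to the left at -0.84, and 4 red ones, and the left panel shows no blue point.

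The sodium-coupled glutamine carriers SLC38A2 and SLC38A1 and the arginine carriers SLC7A1 and SLC7A6 fell with MEL-18 T334A and passed no test with MEL-18 WT. SLC38A2, the carrier SNAT2 that cells raise when amino acids run short, read 864, 861 and 892 CPM with the vector, 857, 799.7 and 827 CPM with MEL-18 WT and 749, 761 and 729 CPM with MEL-18 T334A. The MEL-18 T334A libraries lay below all others. Its log2 fold change was -0.22 ± 0.030 against the vector (edgeR adjusted p = 5.90e-07) and -0.15 ± 0.030 against MEL-18 WT (edgeR adjusted p = 1.98e-04). SLC38A1, the related glutamine carrier SNAT1, changed by -0.14 ± 0.028 and -0.14 ± 0.028 (edgeR adjusted p = 1.20e-04 and 2.44e-04) from 705 ± 13.0 CPM in the vector cells to 638 ± 16.4 CPM. The arginine and lysine carrier SLC7A1 (CAT1) changed by -0.17 ± 0.029 and -0.18 ± 0.029 (edgeR adjusted p = 2.62e-05 and 1.70e-05). SLC7A6, a light chain that exchanges arginine for neutral amino acids, changed by -0.22 ± 0.028 and -0.19 ± 0.028 (edgeR adjusted p = 5.26e-07 and 5.26e-06).

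The heterodimeric carriers share the heavy chain SLC3A2 (CD98). Their light chain SLC7A11 (xCT), which imports cystine in exchange for glutamate, read 309, 311 and 317 CPM with the vector, 302, 291 and 297 CPM with MEL-18 WT and 275, 259.6 and 273 CPM with MEL-18 T334A. MEL-18 T334A lay below both other groups, with -0.22 ± 0.029 against the vector and -0.14 ± 0.029 against MEL-18 WT (edgeR adjusted p = 7.94e-07 and 2.86e-04). SLC7A5 (LAT1), the light chain that imports leucine and other large neutral amino acids, read 219, 221 and 207 CPM with the vector, 235, 245 and 230.2 CPM with MEL-18 WT and 201, 209 and 225 CPM with MEL-18 T334A. It was raised in MEL-18 WT alone, by 0.13 ± 0.036 over the vector (edgeR adjusted p = 0.00536), and differed by -0.16 ± 0.036 between the MEL-18 groups (edgeR adjusted p = 6.82e-04). SLC1A5 (ASCT2), which takes up glutamine in exchange for other neutral amino acids, had the same order, with 236 ± 3.40 CPM with the vector, 255 ± 7.04 CPM with MEL-18 WT and 223 ± 10.5 CPM with MEL-18 T334A. Its difference between the MEL-18 groups was -0.19 ± 0.032 (edgeR adjusted p = 2.40e-05), and its rise in MEL-18 WT of 0.11 ± 0.032 (edgeR adjusted p = 0.0074) was lost without MEL-18 WT replicate 2 (edgeR adjusted p = 0.0624). The heavy chain SLC3A2 stood at 140.0 ± 4.21 CPM with the vector, 139.8 ± 3.799 CPM with MEL-18 WT and 131 ± 6.31 CPM with MEL-18 T334A. Its log2 fold changes of -0.10 and -0.10 in MEL-18 T334A (edgeR adjusted p = 0.0222 and 0.0264) each depended on single libraries. The edgeR adjusted p was 0.108 to 0.162 against the vector (without vector replicate 2 or 3, or MEL-18 T334A replicate 1 or 2). It was 0.0911 to 0.165 against MEL-18 WT (without MEL-18 WT replicate 1 or 2, or MEL-18 T334A replicate 1 or 2). By library totals alone neither call was made (edgeR adjusted p = 0.161 and 0.068), and DESeq2 did not make the second (adjusted p = 0.0511). SLC7A5 has near-identical pseudogene copies, so its counts are uncertain in how reads were split.

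Carriers of glutamate, alanine and serine with few counts moved furthest. SLC1A3, the glutamate and aspartate carrier EAAT1, read 3.11, 3.57 and 3.03 CPM with the vector, 4.70, 5.02 and 4.18 CPM with MEL-18 WT and 2.33, 2.77 and 2.68 CPM with MEL-18 T334A. MEL-18 WT was above and MEL-18 T334A below the vector, without overlap. The log2 fold change was 0.52 ± 0.11 with MEL-18 WT (edgeR adjusted p = 6.60e-04) and -0.84 ± 0.11 between the MEL-18 groups (edgeR adjusted p = 1.61e-06). The value of -0.32 ± 0.13 with MEL-18 T334A against the vector (edgeR adjusted p = 0.0398) was lost without vector replicate 1 (edgeR adjusted p = 0.0544) or 2 (0.197) and without MEL-18 T334A replicate 1 (0.156), with the neighbours taken out (0.0961) and with DESeq2 (0.138). It was also not called by library totals alone (edgeR adjusted p = 0.0728). SLC1A4, the alanine and serine carrier ASCT1, read 4.45, 4.37 and 4.53 CPM with the vector, 7.83, 7.52 and 7.40 CPM with MEL-18 WT and 5.83, 6.73 and 5.64 CPM with MEL-18 T334A. Both MEL-18 groups lay above the vector and MEL-18 WT above MEL-18 T334A, with 0.77 ± 0.089, 0.45 ± 0.093 and -0.32 ± 0.082 (edgeR adjusted p = 1.58e-07, 2.65e-04 and 0.00263). The last of these was lost with the neighbours taken out (edgeR adjusted p = 0.162). SLC6A14, a broad neutral and cationic amino acid carrier, stood at 1.72 ± 0.228 CPM with the vector, 1.67 ± 0.160 CPM with MEL-18 WT and 1.13 ± 0.00751 CPM with MEL-18 T334A. It changed by -0.62 ± 0.17 and -0.57 ± 0.17 in MEL-18 T334A (edgeR adjusted p = 0.00404 and 0.00793). DESeq2 did not make the second call (adjusted p = 0.0622).

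A smaller set was called higher with MEL-18 T334A. SLC43A1 and SLC43A2, the leucine facilitators LAT3 and LAT4, rose in MEL-18 T334A by 0.33 ± 0.064 and 0.42 ± 0.083 (edgeR adjusted p = 1.14e-04 and 1.55e-04). The call of SLC43A1 against MEL-18 WT was lost with the neighbours taken out (0.13, edgeR adjusted p = 0.112). SLC7A2 (CAT2), a cationic amino acid carrier, rose with both constructs, from 40.9 ± 0.598 CPM to 47.3 ± 2.63 and 51.5 ± 4.09 CPM (0.21 ± 0.048 and 0.34 ± 0.048, edgeR adjusted p = 0.00129 and 1.88e-06). Its call between the MEL-18 groups (0.12 ± 0.046, edgeR adjusted p = 0.0324) stood beside a neighbour median of 0.36 on chromosome 8 and turned to -0.25 (edgeR adjusted p = 1.37e-04) with the neighbours taken out. It did not hold without MEL-18 WT replicate 1 (edgeR adjusted p = 0.228) or MEL-18 T334A replicate 3 (0.303) and with DESeq2 (0.0914). By contrast, SLC1A1, the glutamate carrier EAAT3, was lower in MEL-18 T334A than in MEL-18 WT (-0.23 ± 0.056, edgeR adjusted p = 0.00203). It stood beside a neighbour median of -0.35 on chromosome 9, and with the neighbours taken out it read 0.11 (edgeR adjusted p = 0.154).

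Genes of the amino acid response, the program by which ATF4 raises carriers and synthesis enzymes when amino acids run short, were read beside these carriers. Of 12 such genes, 5 rose and 0 fell in MEL-18 WT against the vector (median log2 fold change 0.12), 1 rose and 2 fell in MEL-18 T334A against the vector (0.0092), and 0 were higher and 4 lower in MEL-18 T334A than in MEL-18 WT (-0.097). Over all tested genes 28.8%, 45.9% and 40.9% were called in these comparisons, with about equal shares in each direction, so that fewer of the 12 were called in both comparisons of MEL-18 T334A than among all genes. ATF4 itself rose in MEL-18 WT by 0.13 ± 0.031 (edgeR adjusted p = 0.00165), SESN2, a leucine sensor, by 0.32 ± 0.11 (edgeR adjusted p = 0.0288) and PHGDH, the first enzyme of serine synthesis, by 0.22 ± 0.042 (edgeR adjusted p = 1.99e-04). Asparagine synthetase (ASNS) passed no test, with 0.12, 0.10 and -0.012 in the 3 comparisons. Of 11 genes of the oxidative stress response, in which NRF2 raises SLC7A11 with the enzymes of glutathione and thioredoxin metabolism, 0 rose and 6 fell in MEL-18 WT (median -0.085), 0 rose and 4 fell in MEL-18 T334A against the vector (-0.083), and 1 was higher and 4 lower between the MEL-18 groups (-0.010), against the same shares of all genes. NQO1 changed by -0.45 and -0.39 on the log2 scale against the vector, and the thioredoxin reductase TXNRD1 changed by -0.085, -0.25 and -0.16 (edgeR adjusted p = 4.07e-12 and 2.07e-11 for NQO1 and 0.0201, 3.80e-08 and 3.04e-05 for TXNRD1).

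The main glucose carrier fell in both MEL-18 groups, while several minor sugar carriers were higher in MEL-18 T334A. SLC2A1 (GLUT1), whose start is printed above, read 229, 237 and 228 CPM with the vector, 209, 211 and 213 CPM with MEL-18 WT and 187, 189.6 and 185 CPM with MEL-18 T334A. The groups did not overlap, with the vector highest and MEL-18 T334A lowest. The log2 fold change was -0.13 ± 0.028 with MEL-18 WT (edgeR adjusted p = 5.15e-04), -0.30 ± 0.028 with MEL-18 T334A (edgeR adjusted p = 1.12e-09) and -0.17 ± 0.028 between the MEL-18 groups (edgeR adjusted p = 1.64e-05). SLC2A3 (GLUT3), the high-affinity glucose carrier, stood at 29.3 ± 0.273 CPM with the vector, 33.6 ± 0.467 CPM with MEL-18 WT and 31.6 ± 0.635 CPM with MEL-18 T334A and rose in MEL-18 WT by 0.20 ± 0.040 (edgeR adjusted p = 3.77e-04). Its value of 0.11 ± 0.041 with MEL-18 T334A (edgeR adjusted p = 0.0304) was not called without vector replicate 1 (0.0742) or 2 (0.0552) or MEL-18 T334A replicate 1 (0.0888), and the near-identical SLC2A14 makes its counts uncertain. That call was also lost with DESeq2 (adjusted p = 0.13), with the neighbours taken out (edgeR adjusted p = 0.197) and with no filter on low counts (0.0777). SLC16A3 (MCT4), the lactate exporter of glycolytic cells, stood at 282 ± 4.36 CPM with the vector, 281 ± 3.17 CPM with MEL-18 WT and 268 ± 12.5 CPM with MEL-18 T334A and passed no test (edgeR adjusted p = 0.985, 0.0666 and 0.0763).

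Of the 18 sugar carriers, 2 rose and 4 fell in MEL-18 WT against the vector (median 0.0023), 7 rose and 1 fell in MEL-18 T334A (median 0.072), and 7 were higher and 1 lower in MEL-18 T334A than in MEL-18 WT (median 0.070). Called in either direction were 33.3%, 44.4% and 44.4% of them, close to the 28.8%, 45.9% and 40.9% of all tested genes. The 7 rises against the vector were 4 with DESeq2, with the neighbours taken out, and when vector replicate 1 or MEL-18 T334A replicate 1 was left out. In MEL-18 WT, the 2 rises were 1 with DESeq2, with the neighbours taken out or without vector replicate 2, and the 4 falls were 2 with the neighbours taken out. SLC37A2, an endoplasmic reticulum carrier of sugar phosphates, stood at 2.52 ± 0.334 CPM with the vector, 3.31 ± 0.107 CPM with MEL-18 WT and 4.48 ± 0.343 CPM with MEL-18 T334A. It changed by 0.83 ± 0.12 against the vector and 0.43 ± 0.11 against MEL-18 WT (edgeR adjusted p = 1.69e-06 and 0.00214). Its rise in MEL-18 WT (0.40 ± 0.12, edgeR adjusted p = 0.0158) was lost without vector replicate 2 (edgeR adjusted p = 0.105), with the neighbours taken out (0.0687) and with DESeq2 (0.083). SLC2A6 (GLUT6), a lysosomal hexose carrier, stood at 14.1 ± 0.197 CPM with the vector, 14.1 ± 0.604 CPM with MEL-18 WT and 20.2 ± 1.104 CPM with MEL-18 T334A. MEL-18 T334A was higher than the vector and MEL-18 WT by 0.51 ± 0.056 and 0.52 ± 0.055 (edgeR adjusted p = 2.73e-08 and 2.76e-08). SLC2A8 (GLUT8), also intracellular, changed by 0.36 ± 0.070 and 0.49 ± 0.070 (edgeR adjusted p = 1.38e-04 and 3.27e-06). Both lie on chromosome 9, where the neighbours of SLC2A6 had medians of 0.11 and 0.20 and those of SLC2A8 0.042 and 0.16, and both kept all of these calls with the neighbours taken out. SLC50A1, a Golgi glucose carrier on chromosome 1, was lower in MEL-18 WT (-0.30 ± 0.045, edgeR adjusted p = 8.29e-06), which did not hold with the neighbours taken out (edgeR adjusted p = 0.252). SLC2A12 (GLUT12) fell in MEL-18 WT by 0.27 on the log2 scale and was higher in MEL-18 T334A than in MEL-18 WT by 0.42 ± 0.070 (edgeR adjusted p = 0.00467 and 2.61e-05).

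SLC2A1 is a known target of the hypoxia program. Of 9 genes of that program, 4 rose and 1 fell in MEL-18 WT (median 0.052), 1 rose and 7 fell in MEL-18 T334A against the vector (median -0.20), and 0 were higher and 7 lower in MEL-18 T334A than in MEL-18 WT (median -0.22). Of all tested genes 14.4% were higher and 14.4% lower in the first comparison, 23.4% and 22.5% in the second and 21% and 20% in the third. The carbonic anhydrase CA9 stood at 5.11 ± 0.845 CPM with the vector, 8.40 ± 0.206 CPM with MEL-18 WT and 2.99 ± 0.556 CPM with MEL-18 T334A, with 0.72 ± 0.10, -0.77 ± 0.13 and -1.49 ± 0.11 (edgeR adjusted p = 4.26e-06, 1.57e-05 and 6.32e-11). SLC2A1 did not share the rise with MEL-18 WT. The peptide ADM changed by -0.73 ± 0.049 between the MEL-18 groups and lactate dehydrogenase LDHA by -0.20 ± 0.027 (edgeR adjusted p = 5.91e-12 and 1.13e-06), while HIF1A passed no test, with 0.044, -0.014 and -0.058. TXNIP, which drives GLUT1 into the cell, stood at 88.7 ± 2.87 CPM with the vector, 106 ± 0.919 CPM with MEL-18 WT and 62.7 ± 2.202 CPM with MEL-18 T334A. Its log2 fold changes were 0.25 ± 0.033, -0.50 ± 0.034 and -0.75 ± 0.034 (edgeR adjusted p = 9.19e-07, 4.47e-12 and 7.65e-16). BSG, the chaperone of the lactate carriers, fell in MEL-18 WT and MEL-18 T334A by 0.14 and 0.17 on the log2 scale (edgeR adjusted p = 1.87e-04 and 9.29e-06).

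Of 7 carriers of lactate and other carboxylates, SLC16A14 and SLC16A7 are described. SLC16A14, an orphan member of the monocarboxylate family, read 1.31, 1.31 and 1.88 CPM with the vector, 2.49, 2.63 and 2.74 CPM with MEL-18 WT and 2.70, 2.63 and 3.02 CPM with MEL-18 T334A. The vector libraries lay below both MEL-18 groups, and the MEL-18 groups overlapped. It rose by 0.81 ± 0.15 and 0.90 ± 0.15 (edgeR adjusted p = 1.60e-04 and 2.02e-05). SLC16A7 (MCT2), a high-affinity lactate and pyruvate carrier, fell in MEL-18 T334A by 0.16 on the log2 scale (edgeR adjusted p = 0.00141). 

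Of the 6 carriers of osmolytes and neurotransmitters, 4 rose and 2 fell in MEL-18 T334A against the vector, where 45.9% of all tested genes were called. The uptake of myo-inositol and taurine, which cells use to hold water, is served by SLC5A3 and SLC6A6. SLC5A3 (SMIT1) read 159, 153 and 173 CPM with the vector, 149, 144 and 149 CPM with MEL-18 WT and 124, 115 and 109 CPM with MEL-18 T334A. The groups were apart, with MEL-18 T334A well below the others. It fell by 0.48 and 0.34 on the log2 scale against the vector and MEL-18 WT (SE 0.041 and 0.041, edgeR adjusted p = 3.29e-10 and 1.69e-07). Its smaller fall in MEL-18 WT (-0.13 ± 0.040, edgeR adjusted p = 0.012) was lost without vector replicate 3 (edgeR adjusted p = 0.163) or MEL-18 WT replicate 2 (0.0733), and SLC5A3 overlaps MRPS6, so its counts are uncertain. SLC6A6, the taurine carrier, fell in MEL-18 T334A by 0.13 on the log2 scale (edgeR adjusted p = 0.00285). Against MEL-18 WT its call (-0.10 ± 0.034, edgeR adjusted p = 0.0199) was lost without MEL-18 WT replicate 3 (edgeR adjusted p = 0.13) or MEL-18 T334A replicate 3 (0.17) and by library totals alone (0.0671).

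SLC6A8, the creatine carrier, went up instead and read 6.89, 6.39 and 6.79 CPM with the vector, 9.90, 9.64 and 9.00 CPM with MEL-18 WT and 12.01, 11.2 and 11.02 CPM with MEL-18 T334A. All 3 groups were apart in that order, with log2 fold changes of 0.51 ± 0.075, 0.77 ± 0.073 and 0.26 ± 0.067 (edgeR adjusted p = 6.58e-06, 2.29e-09 and 0.00281). It has near-identical pseudogene copies, so the split of its reads is uncertain. SLC6A9, the glycine carrier GLYT1, rose in MEL-18 T334A by 0.36 ± 0.080 (edgeR adjusted p = 5.72e-04). SLC2A13, the proton-coupled inositol carrier, read 10.5 ± 0.247 CPM with the vector, 11.7 ± 0.639 CPM with MEL-18 WT and 12.2 ± 1.24 CPM with MEL-18 T334A. Its rise in MEL-18 T334A (0.22 ± 0.073, edgeR adjusted p = 0.0156) was lost without MEL-18 T334A replicate 1 (edgeR adjusted p = 0.081) or 2 (0.0729) and with DESeq2 (0.0608). SLC18A2, the vesicular monoamine carrier on chromosome 10, rose in MEL-18 T334A by 0.32 ± 0.054 (edgeR adjusted p = 2.05e-05), beside a neighbour median of 0.30, and with the neighbours taken out it read -0.0071 (edgeR adjusted p = 0.934).

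Metal carriers showed small changes in both directions. Of 26, 5 rose and 3 fell in MEL-18 WT against the vector (median 0.0041), 5 rose and 7 fell in MEL-18 T334A (median -0.028), and 6 were higher and 8 lower in MEL-18 T334A than in MEL-18 WT (median 0.0089). That is 30.8%, 46.2% and 53.8% called, beside 28.8%, 45.9% and 40.9% of all tested genes. These counts depended on single libraries and settings: the 5 rises with MEL-18 WT were 0 without MEL-18 WT replicate 2, 3 without vector replicate 1 or 3 and 3 with DESeq2, and the 3 falls were 0 with the neighbours taken out. In MEL-18 T334A against the vector, the 5 rises were 3 with DESeq2 and 11 by library totals alone, and the 7 falls were 4 by library totals alone and 4 when either vector replicate 2 or MEL-18 T334A replicate 2 was left out. Between the MEL-18 groups, the 6 higher members were 2 with the neighbours taken out, and the 8 lower ones were 4 with DESeq2, 5 by library totals alone, 5 without MEL-18 WT replicate 2 and 4 without MEL-18 T334A replicate 2. The only calls over 1.5-fold were those of SLC40A1 and SLC30A3 in MEL-18 T334A against the vector. SLC40A1 is ferroportin, the only known iron exporter, and read 1.86, 1.69 and 2.49 CPM with the vector, 2.46, 3.50 and 3.04 CPM with MEL-18 WT and 3.32, 3.00 and 2.79 CPM with MEL-18 T334A. Vector replicate 3 lay above MEL-18 WT replicate 1, the MEL-18 T334A libraries lay above all vector libraries, and the MEL-18 groups overlapped. It rose by 0.58 ± 0.15 in MEL-18 WT and 0.59 ± 0.15 in MEL-18 T334A (edgeR adjusted p = 0.00475 and 0.00241), and the first call was lost without MEL-18 WT replicate 2 (edgeR adjusted p = 0.0521).

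Zinc leaves the cytosol through SLC30 and enters it through SLC39 carriers. SLC30A3, a vesicular zinc carrier, rose by 0.53 ± 0.14 and 0.63 ± 0.14 (edgeR adjusted p = 0.00485 and 5.49e-04) at 2.10 ± 0.146 CPM with the vector, 3.03 ± 0.408 CPM with MEL-18 WT and 3.25 ± 0.429 CPM with MEL-18 T334A. The first call was lost without MEL-18 WT replicate 2 (edgeR adjusted p = 0.0518). SLC30A1, the zinc exporter of the plasma membrane, stood at 24.5 ± 0.943 CPM with the vector, 27.4 ± 0.932 CPM with MEL-18 WT and 24.5 ± 0.649 CPM with MEL-18 T334A. It was lower in MEL-18 T334A than in MEL-18 WT (-0.16 ± 0.046, edgeR adjusted p = 0.00596). Its rise in MEL-18 WT (0.16 ± 0.046, edgeR adjusted p = 0.0108) was lost without vector replicate 3 (edgeR adjusted p = 0.062) or MEL-18 WT replicate 2 (0.0575) and with DESeq2 (0.0592). The secretory pathway carriers SLC30A6 and SLC30A7 fell in MEL-18 T334A by 0.23 and 0.12 on the log2 scale (edgeR adjusted p = 1.61e-06 and 0.00197). SLC30A6, with a neighbour median of -0.28 on chromosome 2, read 0.048 with the neighbours taken out (edgeR adjusted p = 0.256). The importer SLC39A1 (ZIP1) changed in MEL-18 WT by -0.22 ± 0.031 and SLC39A14 (ZIP14), which also takes up iron and manganese, by -0.19 ± 0.033 (edgeR adjusted p = 5.42e-06 and 4.31e-05). Their neighbours on chromosomes 1 and 8 had medians of -0.20 and -0.18, and with these taken out the values were -0.012 and 0.0012 (edgeR adjusted p = 0.844 and 0.986). SLC39A6, the estrogen-linked zinc importer LIV-1, and SLC39A10, its close relative, changed by 0.12 ± 0.031 and -0.087 ± 0.032 between the MEL-18 groups (edgeR adjusted p = 0.0021 and 0.0316). Both calls were lost with the neighbours taken out (edgeR adjusted p = 0.967 and 0.29). That of SLC39A10 also depended on each of 5 libraries, with edgeR adjusted p from 0.0607 (without MEL-18 WT replicate 2) over 0.0638 (MEL-18 WT replicate 1), 0.07 (MEL-18 T334A replicate 2) and 0.119 (MEL-18 WT replicate 3) to 0.186 (without MEL-18 T334A replicate 3). SLC39A10 was also not called with DESeq2 (adjusted p = 0.0551), by library totals alone (edgeR adjusted p = 0.103) or with the compared groups alone (0.0501).

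Copper enters through SLC31A1 (CTR1), which fell in MEL-18 WT by 0.21 on the log2 scale (edgeR adjusted p = 7.19e-06). Its neighbour SLC31A2 on chromosome 9, a related copper carrier, had -0.18 (edgeR adjusted p = 0.102), and the genes around them had medians of -0.18 and -0.19. With the neighbours taken out SLC31A1 was not called (edgeR adjusted p = 0.141). SLC11A2 (DMT1), the importer of ferrous iron, passed no test (0.033, 0.079 and 0.046). SLC41A3, a magnesium carrier, fell in MEL-18 T334A by 0.22 and 0.18 on the log2 scale against the vector and MEL-18 WT (edgeR adjusted p = 6.52e-05 and 8.68e-04). Of 11 genes of metal handling outside the family, 8 were tested, of which 1 rose and 2 fell in MEL-18 WT (median -0.010), 0 rose and 4 fell in MEL-18 T334A against the vector (-0.087), and 1 was higher and 4 lower between the MEL-18 groups (-0.087), beside 28.8%, 45.9% and 40.9% of all tested genes called in either direction. The transferrin receptor TFRC stood at 783 ± 6.46 CPM with the vector, 716 ± 12.4 CPM with MEL-18 WT and 580.0 ± 24.5 CPM with MEL-18 T334A. This is a change of -0.13 ± 0.030, -0.43 ± 0.030 and -0.30 ± 0.030 (edgeR adjusted p = 0.00153, 5.16e-12 and 6.54e-09). The ferritin light chain FTL, an iron store counted above with the oxidative stress genes, changed by -0.20 ± 0.033, -0.54 ± 0.033 and -0.34 ± 0.033 (edgeR adjusted p = 4.22e-05, 4.82e-13 and 4.55e-09). The neighbours of TFRC had medians of -0.13, -0.21 and -0.093, and those of FTL 3.8e-05, 0.031 and -0.019. The ferritin heavy chain FTH1 changed by -0.11, -0.12 and -0.010 (edgeR adjusted p = 0.00436, 0.00112 and 0.804).

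The mitochondrial carriers form the largest class, and none of them had a called change over 1.5-fold. Of 39, 3 rose and 5 fell in MEL-18 WT against the vector (median 0.023), 8 rose and 7 fell in MEL-18 T334A (median 0.0056), and 7 were higher and 9 lower in MEL-18 T334A than in MEL-18 WT (median -0.026). That is 20.5%, 38.5% and 41% called, beside 28.8%, 45.9% and 40.9% of all tested genes. By library totals alone the 3 rises in MEL-18 WT were 6, and with the neighbours taken out the 5 falls were 3. Between the MEL-18 groups, the 7 higher members were 4 with the neighbours taken out, and the 9 lower ones were 5 with DESeq2, with the neighbours taken out or without MEL-18 T334A replicate 1. SLC25A36, which brings pyrimidine nucleotides into mitochondria, read 128, 126 and 136 CPM with the vector, 128, 124 and 123 CPM with MEL-18 WT and 107, 104 and 104 CPM with MEL-18 T334A. The MEL-18 T334A libraries lay below all others, with -0.31 ± 0.032 against the vector and -0.25 ± 0.032 against MEL-18 WT (edgeR adjusted p = 1.33e-08 and 4.27e-07). SLC25A32, the carrier of folate and flavin nucleotides, fell alike, by 0.26 and 0.26 on the log2 scale (edgeR adjusted p = 3.30e-06 and 4.37e-06). SLC25A11, the oxoglutarate carrier of the malate and aspartate shuttle, fell by 0.17 and 0.17 (edgeR adjusted p = 4.84e-04 and 4.79e-04).

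Phosphate and adenine nucleotides reach the ATP synthase through SLC25A3 and the SLC25A5 family. SLC25A3, which imports phosphate for ATP synthesis, stood at 764 ± 11.2 CPM with the vector, 762 ± 17.9 CPM with MEL-18 WT and 738 ± 14.4 CPM with MEL-18 T334A and passed no test (edgeR adjusted p = 0.947, 0.162 and 0.207). SLC25A5, the adenine nucleotide carrier ANT2, fell in MEL-18 T334A by 0.11 on the log2 scale (edgeR adjusted p = 0.00138), which did not hold with its neighbours on the X chromosome taken out (edgeR adjusted p = 0.388), and its pseudogene copies make its counts uncertain. SLC25A10, the dicarboxylate carrier, passed no test, with -0.078, -0.12 and -0.040. The citrate carrier SLC25A1 was higher in MEL-18 T334A than in MEL-18 WT by 0.13 ± 0.038 (edgeR adjusted p = 0.00583), which was lost without MEL-18 T334A replicate 2 (edgeR adjusted p = 0.0871). SLC25A21, the oxodicarboxylate carrier, rose by 0.29 ± 0.078 in MEL-18 WT and 0.34 ± 0.078 in MEL-18 T334A (edgeR adjusted p = 0.00607 and 6.78e-04), the first of which was lost without vector replicate 2 (edgeR adjusted p = 0.0583). The calcium-regulated ATP and phosphate carriers differed. SLC25A23 rose in MEL-18 T334A by 0.23 ± 0.033 (edgeR adjusted p = 2.13e-06). SLC25A25 fell in MEL-18 WT and MEL-18 T334A by 0.28 and 0.21 on the log2 scale (edgeR adjusted p = 1.00e-04 and 0.00144).

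Each of the 5 carriers of fatty acids and acetyl-CoA differed between the MEL-18 groups, where 40.9% of all tested genes and 44.9% of those at 1 CPM or more were called. SLC27A2 (FATP2), an acyl-CoA synthetase that takes up long and very long chain fatty acids, read 1.71, 2.41 and 2.199 CPM with the vector, 4.42, 4.34 and 3.73 CPM with MEL-18 WT and 2.39, 2.66 and 2.11 CPM with MEL-18 T334A. MEL-18 WT lay above both other groups, and the vector and MEL-18 T334A libraries overlapped. The log2 fold change was 0.99 ± 0.13 with MEL-18 WT (edgeR adjusted p = 1.70e-06), 0.18 ± 0.15 with MEL-18 T334A (edgeR adjusted p = 0.34) and -0.81 ± 0.13 between the MEL-18 groups (edgeR adjusted p = 1.17e-05). Its relatives SLC27A1 (FATP1) and SLC27A4 (FATP4) were higher in MEL-18 T334A than in MEL-18 WT by 0.33 ± 0.073 and 0.33 ± 0.035 (edgeR adjusted p = 5.99e-04 and 1.71e-08), the latter beside a neighbour median of 0.23 on chromosome 9. SLC27A3 (FATP3) differed by -0.38 ± 0.10 (edgeR adjusted p = 0.00363). SLC33A1, which brings acetyl-CoA into the endoplasmic reticulum, fell in MEL-18 T334A by 0.24 and 0.23 on the log2 scale (edgeR adjusted p = 2.77e-05 and 5.20e-05), and the first call was lost with the neighbours taken out (edgeR adjusted p = 0.0716).

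Of the 12 carriers of vitamins, cofactors and choline, members of the choline carrier-like family SLC44 are described first. SLC44A3, whose substrate is not settled, read 4.24, 4.55 and 4.62 CPM with the vector, 5.85, 6.79 and 5.84 CPM with MEL-18 WT and 7.48, 8.32 and 6.79 CPM with MEL-18 T334A. Its libraries did not overlap between groups, though MEL-18 WT replicate 2 and MEL-18 T334A replicate 3 are equal when rounded. It rose by 0.46 ± 0.10 and 0.75 ± 0.10 with MEL-18 WT and MEL-18 T334A (edgeR adjusted p = 6.82e-04 and 3.60e-07). Between the MEL-18 groups the call (0.29 ± 0.089, edgeR adjusted p = 0.0105) was lost without MEL-18 WT replicate 1 (edgeR adjusted p = 0.0523) or MEL-18 T334A replicate 2 (0.0918) and with DESeq2 (0.059). SLC44A2, a choline carrier of the plasma membrane and mitochondria, read 125, 127 and 134 CPM with the vector, 114, 109 and 109 CPM with MEL-18 WT and 141, 144 and 139 CPM with MEL-18 T334A. MEL-18 WT lay below and MEL-18 T334A above the vector, with -0.22 ± 0.032, 0.14 ± 0.032 and 0.35 ± 0.032 (edgeR adjusted p = 7.89e-06, 7.88e-04 and 1.43e-09), and its neighbours on chromosome 19 had medians of 0.029, -0.00044 and -0.038. SLC44A5 rose in MEL-18 T334A by 0.38 ± 0.059 (edgeR adjusted p = 8.37e-06), and SLC44A1, the best known choline carrier of the family, passed no test (-0.0030, -0.049 and -0.046). SLC5A6, the biotin and pantothenate carrier on chromosome 2, fell in MEL-18 T334A by 0.19 on the log2 scale (edgeR adjusted p = 6.52e-04), beside a neighbour median of -0.21, and read 0.044 with the neighbours taken out (edgeR adjusted p = 0.454).

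Among carriers of phosphate, sulfate and other anions, the phosphate importer SLC20A1 (PiT1) and the sulfate carrier SLC26A2 passed no test, with -0.092, -0.018 and 0.074 and with -0.060, 0.029 and 0.089. SLC20A2 (PiT2), the other phosphate importer of its family, was higher in MEL-18 T334A than in MEL-18 WT by 0.14 ± 0.051 (edgeR adjusted p = 0.0297), which did not hold without MEL-18 WT replicate 1 (0.197) or MEL-18 T334A replicate 2 (0.135), with DESeq2 (0.115) or with the neighbours taken out (0.801). SLC26A6, an exchanger of chloride, oxalate and bicarbonate, rose in MEL-18 T334A by 0.33 ± 0.046 against the vector and 0.27 ± 0.045 against MEL-18 WT (edgeR adjusted p = 1.36e-06 and 2.37e-05). SLC26A10, at few counts, rose by 0.64 ± 0.11 against the vector (edgeR adjusted p = 4.39e-05). The sulfate carrier SLC13A4 was called lower in MEL-18 WT (-0.34 ± 0.12, edgeR adjusted p = 0.0393) but not without vector replicate 1 (0.263) or 3 (0.0582) or MEL-18 WT replicate 1 (0.161) or 3 (0.0827). The call was also lost with DESeq2 (adjusted p = 0.163), with the neighbours taken out (edgeR adjusted p = 0.49) and by library totals alone (0.0527). SLC26A7, an anion exchanger on chromosome 8, was lower in MEL-18 T334A than in MEL-18 WT (-0.44 ± 0.15, edgeR adjusted p = 0.0221), which was lost without MEL-18 WT replicate 2 (0.0666) or 3 (0.0967) or MEL-18 T334A replicate 3 (0.109) and with DESeq2 (0.114).

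The remaining classes are small. Of 5 carriers of nucleotide sugars, which supply the Golgi, SLC35A5 changed most, by -0.17 ± 0.043 and -0.27 ± 0.043 (edgeR adjusted p = 0.0037 and 1.37e-05), the first lost without MEL-18 WT replicate 3 (edgeR adjusted p = 0.0599) and with the neighbours taken out (0.106). SLC10A7, placed with the bile acid carriers by family and known for calcium regulation, fell in MEL-18 T334A by 0.23 on the log2 scale (edgeR adjusted p = 0.00736), lost without vector replicate 3 (edgeR adjusted p = 0.0638) and with the neighbours taken out (0.359). The peptide and histidine carrier SLC15A4 of the lysosome was higher with MEL-18 T334A by 0.13 ± 0.041 (edgeR adjusted p = 0.0109), lost without MEL-18 T334A replicate 3 (edgeR adjusted p = 0.0554), with the neighbours taken out (0.211) and with DESeq2 (0.0506). Of 17 partners and regulators of SLC proteins, 3 rose and 8 fell in MEL-18 WT (median -0.069), 3 rose and 7 fell in MEL-18 T334A (-0.057), and 3 were higher and 6 lower between the MEL-18 groups (-0.032), where 28.8%, 45.9% and 40.9% of all tested genes were called. ATP1B1, a subunit of the sodium pump that drives the sodium-coupled carriers, stood at 179 ± 5.01 CPM with the vector, 127 ± 5.02 CPM with MEL-18 WT and 131 ± 6.84 CPM with MEL-18 T334A. It changed by -0.50 ± 0.036 and -0.45 ± 0.036 against the vector (edgeR adjusted p = 2.34e-11 and 8.66e-11).

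Part of the small changes moved with the chromosome. For each member the median log2 fold change of the 20 tested genes on either side was taken, with gene order from RefSeq on GRCh38.p14, since the files give no positions. In MEL-18 WT against the vector, 28 members had a neighbour median of at least 0.1 in size, of which 20 were called and 16 of these in the direction of their neighbours, against 39 called of the other 161 members. In MEL-18 T334A against the vector the same counts were 36, 22 and 18, against 67 of 153, a smaller contrast. Between the MEL-18 groups they were 48, 34 and 30, against 54 of 141. Over all tested genes 28.8%, 45.9% and 40.9% were called. On chromosome 7, where members' neighbour medians had a median of -0.15, 5 of 8 members were called lower in MEL-18 WT and 1 higher, and on chromosome 9 (-0.11) 3 of 9 were lower and 1 higher, where 14.4% of all tested genes were called lower and 14.4% higher. These chromosomes were picked after their values were seen. The shares among all tested genes of the same chromosomes, or with such neighbour medians, were not taken. Whether the members differ from the genes around them cannot be told from these counts. Between the MEL-18 groups these chromosomes had medians of 0.17 and 0.19, with 6 of 8 and 5 of 9 members called higher and 0 and 2 lower, against 21% and 20% of all tested genes.

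SLC25A13, the aspartate and glutamate carrier on chromosome 7, changed by -0.21 ± 0.032 in MEL-18 WT and 0.23 ± 0.031 between the MEL-18 groups (edgeR adjusted p = 1.20e-05 and 1.35e-06), beside neighbour medians of -0.16 and 0.15. SLC25A40, a mitochondrial glutathione carrier on the same chromosome, changed by -0.26 ± 0.046 and 0.23 ± 0.045 (edgeR adjusted p = 8.06e-05 and 1.81e-04). SLC25A37, the mitochondrial iron importer mitoferrin on chromosome 8, changed by -0.21 ± 0.037, 0.11 ± 0.036 and 0.32 ± 0.036 (edgeR adjusted p = 5.39e-05, 0.0138 and 6.45e-08), beside neighbour medians of -0.21, 0.10 and 0.32. The second call was lost without vector replicate 1 (edgeR adjusted p = 0.0936). With the neighbours taken out none of these calls remained (edgeR adjusted p = 0.461 and 0.0743 for SLC25A13, 0.0768 and 0.255 for SLC25A40, and 0.998, 0.982 and 0.985 for SLC25A37). In that fit 47, 78 and 65 members were called in the 3 comparisons, of which 37, 66 and 52 were among the 59, 89 and 88 above. SLC12A7, SLC4A3, SLC4A4, SLC22A3 and SLC6A8 were called in both fits in every comparison of these 5, and for SLC12A7 the values with the neighbours taken out were 1.24, 1.78 and 0.53. What shifts stretches of a chromosome together was not tested.

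**Figure D5:**
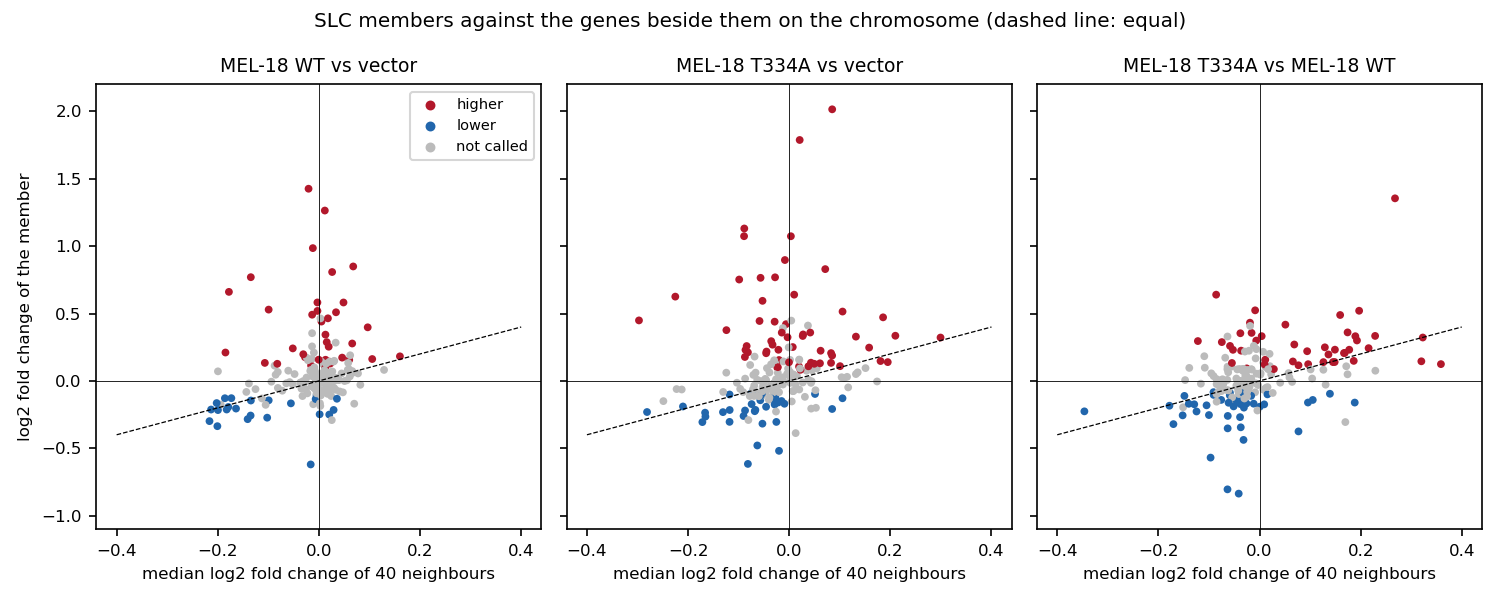
Log2 fold change of each member (y axis) against the median log2 fold change of its 40 nearest tested neighbours on the chromosome (x axis), in the 3 comparisons, with called members in red (higher) and blue (lower) and a dashed line where both are equal. Of the members beyond 0.1 on the x axis that were called, 16 of 20, 18 of 22 and 30 of 34 lie on the side of their neighbours and SLC12A7 lies high above the line.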

How the data were processed

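Polyadenylated RNA of 9 MDA-MB-231 cultures (3 for each construct) was sequenced. Per the submitters' processing notes, CASAVA 1.8, STAR 2.5.3a, featureCounts from Subread 1.5.3 and hg19 were used. The authors deposited raw read counts per gene for each library. Not given in the sources used here were the annotation, the strand setting and the counting of multi-mapping reads.

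Genes were kept by filterByExpr (14738), scaled by TMM factors (0.979 to 1.02) and tested with edgeR 4.0.16 (R 4.3.3, limma 3.58.1), whose two-sided quasi-likelihood F test was fitted to the 9 libraries together, one mean for each construct. P-values were adjusted by Benjamini-Hochberg over all tested genes and called below 0.05. An SE is the size of the log2 fold change divided by the root of the F statistic. Printed CPM use TMM-scaled totals. The biological coefficient of variation was 2.57%. Pairs of replicates differed by more than counting noise, with a chi-square per degree of freedom of 1.49 to 3.98. The test was tried on simulated counts with 200 changed genes. Depth was 31643722 to 37005302 counts per library.

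Alternatives were DESeq2 1.42.0, library totals or RLE scaling, other filters and floors, a replicate block, the compared groups alone, each library left out, and subtraction of the median change of the 20 tested genes on each side, by RefSeq gene order. Members, substrate classes, gene lists and tests were chosen with earlier results of these data known. Named members are the 8 most positive and 8 most negative called changes per comparison, the top called member of each class and a list of main carriers, and 29 others were added after their values were seen. Some members chosen by this rule are not reported here. Figures were drawn with matplotlib 3.10.9.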

Additional observations from a re-analysis of the deposited data

How the results depend on the processing

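The 3 counts of called members moved by less than 1.5 times under every alternative run. When 1 library was left out, 49 to 54 members were called in MEL-18 WT against the vector, 76 to 98 in MEL-18 T334A against the vector and 72 to 96 between the MEL-18 groups. DESeq2 called 48, 69 and 66, and scaling by library totals alone called 62, 97 and 84. A replicate block called 56, 85 and 86. Under it the call of SLC13A4 in MEL-18 WT against the vector was lost (edgeR adjusted p = 0.0611). The deviations of libraries with the same number correlated at -0.079 to 0.014. They were taken from means of 3 libraries, so these values cannot exclude a shared day or batch, which the labels do not give. Over the 97 members followed one by one, 3838 of 4074 alternative values stayed on the same side of the threshold, called ones in the same direction. Another 163 fell short of it, 59 newly passed, and 14 changed sign with a call in either fit. A change of sign without a call in either fit was not counted. Many of these members were chosen for large calls or after their values were seen. Values called in neither fit also counted as staying. The share that stayed is therefore no estimate for all members. All 14 counted sign changes came with the neighbours taken out, which subtracts the neighbours' shift by construction. The log2 fold changes were then, with the edgeR adjusted p in brackets, 0.0012 for SLC39A14 (0.986) in MEL-18 WT against the vector, -0.0071 for SLC18A2 (0.934), -0.0014 for SLC25A37 (0.982), 0.048 for SLC30A6 (0.256), 0.027 for SLC39A1 (0.534), -0.086 for SLC4A7 (0.0246) and 0.044 for SLC5A6 (0.454) in MEL-18 T334A against the vector, and -0.013 for SLC18A2 (0.885), 0.11 for SLC1A1 (0.154), -0.15 for SLC25A25 (0.0265), -0.0013 for SLC25A37 (0.985), -0.036 for SLC31A1 (0.421), -0.18 for SLC39A14 (1.62e-04) and -0.25 for SLC7A2 (1.37e-04) between the MEL-18 groups. Library totals alone moved the median of all tested genes by 0.020, 0.038 and 0.018. Depth limits the members near 1 CPM, which rest on few reads per library, and changes near 1.2-fold. Of 1.2-fold changes put into simulated counts, 55.2 to 68.7% were recovered over the 3 comparisons. Only 200 genes were changed there, while 4242, 6765 and 6034 genes were called in the data. The adjusted p depends on how many genes change, so this rate does not measure what these data can detect.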

Other observations

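Transporters outside the SLC naming pattern were read as a group. Of 47 such genes, 37 were tested, of which 5 rose and 7 fell in MEL-18 WT against the vector, 13 rose and 8 fell in MEL-18 T334A against the vector, and 13 were higher and 6 lower in MEL-18 T334A than in MEL-18 WT, with median log2 fold changes of -6.0e-05, -0.0062 and 0.096. Among all tested genes 28.8%, 45.9% and 40.9% were called in these comparisons. Some organic anion transporters of the SLCO family moved further than most SLC members. SLCO2A1, a prostaglandin carrier, stood at 1.13 ± 0.149 CPM with the vector, 2.36 ± 0.311 CPM with MEL-18 WT and 4.01 ± 0.451 CPM with MEL-18 T334A, with 1.07 ± 0.17 and 1.83 ± 0.15 against the vector (edgeR adjusted p = 1.79e-05 and 2.01e-10). SLCO3A1 rose from 10.2 ± 0.899 CPM to 17.0 ± 0.430 and 22.3 ± 1.56 CPM (0.73 ± 0.068 and 1.12 ± 0.065, edgeR adjusted p = 3.35e-09 and 1.53e-13). SLCO4A1, a carrier of organic anions, went the other way, from 9.61 ± 1.199 CPM to 4.22 ± 0.977 and 5.06 ± 0.481 CPM (-1.18 ± 0.11 and -0.92 ± 0.11, edgeR adjusted p = 7.63e-09 and 1.44e-07).

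Of 5 genes of the sterol response, 0 rose and 3 fell in MEL-18 WT against the vector, 2 rose and 2 fell in MEL-18 T334A against the vector, and 3 were higher and 1 lower in MEL-18 T334A than in MEL-18 WT, with median log2 fold changes of -0.087, 0.0080 and 0.12, where 28.8%, 45.9% and 40.9% of all tested genes were called.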
